A study of Macaca mulatta with 52 samples.

Results

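Of the 52 rhesus monkey (Macaca mulatta) samples in the labels, 2 were embryos named delayed blastocysts, and both were sequenced as SPIA libraries, prepared by isothermal linear amplification (Ribo-SPIA). They were chosen by the stage in their titles and set against the 14 SPIA libraries of expanded blastocysts, and then against the 2 of these that carry the same 6-digit title code, 112515. The other expanded blastocysts carried the codes 111215 (3 embryos), 111715 (5 embryos) and 112415 (4 embryos), and 11 SPIA morulas served as the earlier stage. The series profiled the transcriptomes of rhesus embryos at several preimplantation stages.

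All groups came from oocytes that matured in females given FSH and hCG and were fertilised in vitro, and the labels' protocol runs the culture to day 8 after insemination with stages scored by microscope. Culture was in a medium with or without relaxin, and the labels used here assign no library to either medium, so relaxin entered no comparison. No strain, allele, age or sex is given, and the labels do not say by which hour or appearance an embryo was called delayed. Each library is taken as 1 embryo, as the titles number them. With 2 delayed embryos, p-values measure only the spread between these libraries, and title code 112515 contains every delayed embryo, so that an effect of what the code stands for and an effect of delay can be told apart only against the 2 expanded embryos of that code. No morula shares a title code with a delayed or expanded blastocyst. Stage and what the codes stand for therefore cannot be told apart in any result that uses the morulas.

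A blastocyst has an outer epithelium, the trophectoderm, which pumps fluid into the cavity and later forms the placenta, and an inner cell mass that gives the epiblast and the primitive endoderm. GATA2 and GATA3 are transcription factors of the trophectoderm, GATA4, GATA6 and the receptor PDGFRA mark the primitive endoderm, and POU5F1 and NANOG mark pluripotent cells. Expansion follows when fluid stretches the cavity behind sealed cell junctions. In bulk libraries such as these, fewer cells of a type and less RNA per cell cannot be told apart.

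Levels are given in CPM, counts per 1 M counts (M, mega) of a library total scaled by TMM, a normalisation for differences in composition. The delayed libraries held 5.38 and 5.30 M counts, and the expanded libraries 0.601 to 11.7 M with a median of 6.57 M. At an equal depth the delayed embryos had 9740 and 11121 genes detected, within the 7064 to 11790 of the expanded ones (exact permutation p = 0.492, two-sided, adjusted p = 0.738 over 3 library measures). Abundant identifiers without a symbol took 62.3% and 42.3% of the delayed counts and 24.8% to 70.3% of the expanded counts. Among the expanded libraries 2 stood apart, 111715_05 with 0.601 M counts and 112515_03 with the fewest genes detected, and they are named beside the results that rest on them. Of the defining markers of other cells, PTPRC (blood), INHA (cumulus) and TNP1 (sperm) were at 0 in both delayed embryos, while VCAN and HAS2 (cumulus) lay at 0.444 to 3.11 CPM, within the expanded range. The lists of cumulus, sperm and blood markers held 22, 14 and 20 genes. Of these only 17, 11 and 17 could be matched to an identifier, and 10, 3 and 9 had a count in a delayed embryo. Summed over each list, cumulus genes came to 355 to 376 CPM against 240 to 817 CPM in expanded embryos. Sperm genes came to 25.2 to 27.8 CPM against 7.55 to 259.5 CPM. Blood genes came to 34.2 and 272.5 CPM against 46.1 to 149 CPM. LCP1, an actin-bundling protein, gave most of the higher sum, at 24.6 and 255 CPM in the delayed embryos against 30.8 to 134.5 CPM, and its part in other results was not tested.

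The trophectoderm genes GATA2, GATA3, KRT18, DLX3 and STS had counts in both delayed embryos and lay below 10 to 13 of the 14 expanded embryos, while CCKBR lay above all 14 and TFAP2C around the median. GATA2 measured 128 CPM in delayed embryo 1 (112515_01) and 43.7 CPM in delayed embryo 2 (112515_02), against a lowest, median and highest expanded value of 9.14, 244 and 352 CPM. Both delayed values lay below 12 of 14 expanded embryos and above 1, and they lay above 9 of 11 morulas, whose median was 0.908 CPM and whose highest value was 263 CPM. The fitted difference from expanded embryos was -1.37 ± 2.03 on the log2 scale (SE, edgeR quasi-likelihood test, 95% interval -5.49 to 2.76, adjusted p = 1.0). GATA3 measured 18.2 and 17.9 CPM against 4.57, 34.2 and 54.9 CPM in expanded embryos, below 10 and above 4 of them. KRT18, a keratin of simple epithelia, measured 113 and 46.8 CPM against 32.0, 217 and 476 CPM. It lay below 12 of 14 expanded embryos and above 10 of 11 morulas, the exception being a morula at 98.6 CPM. DLX3, a homeobox factor of trophoblast, measured 5.99 and 7.68 CPM against 2.29, 36.4 and 56.5 CPM, and 13 of 14 expanded embryos lay above both. STS, the steroid sulfatase of the placenta, measured 23.3 and 14.2 CPM against 2.29, 90.5 and 318 CPM, with 12 expanded embryos above both. In GATA2, GATA3, KRT18, DLX3 and STS the lowest expanded library was the 0.601 M one, so that without it no expanded embryo lay below both delayed embryos in GATA2, KRT18, DLX3 or STS. Of the expanded embryos of code 112515, 112515_03 measured 245.6, 47.4 and 271.5 CPM in GATA2, GATA3 and KRT18. The other, 112515_04, measured 44.85, 11.54 and 52.0 CPM. It was thus near delayed embryo 2 in GATA2 and KRT18 and below both delayed embryos in GATA3. CCKBR, a gastrin and cholecystokinin receptor, lay the other way, at 11.1 and 8.09 CPM in the delayed embryos against 0, 1.19 and 6.01 CPM, above all 14. TFAP2C, a factor of trophectoderm and pluripotent cells chosen after its values were seen, measured 102 and 67.0 CPM around the expanded median of 68.6 CPM.

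The primitive endoderm genes GATA6, PDGFRA, GATA4, COL4A1 and APOA1 lay below 9 to 12 of the 14 expanded embryos in both delayed embryos, none past the test. GATA6 measured 183 and 82.9 CPM, against 131, 277 and 497 CPM in expanded embryos (log2 difference -1.09 ± 0.83, 95% interval -2.75 to 0.57, edgeR adjusted p = 1.0). Delayed embryo 2 thus lay below all 14 expanded embryos and delayed embryo 1 below 11 of them. The 11 morulas had a median of 300.0 CPM in GATA6, and expanded embryos differed from them by -0.31 on the log2 scale (edgeR adjusted p = 0.66). PDGFRA measured 231 and 150.5 CPM against 126, 326 and 740 CPM (-0.90 ± 0.61, 95% interval -2.13 to 0.33, edgeR adjusted p = 1.0), and the morula median was 236 CPM. GATA4 measured 9.77 CPM in delayed embryo 1 and 0.27 CPM in delayed embryo 2, against 0, 21.1 and 48.4 CPM in expanded embryos and a morula median of 0.195 CPM. Delayed embryo 2 was therefore near the morula median for GATA4, as were 3 expanded embryos under 1 CPM. COL4A1, a collagen of the basement membrane, measured 15.1 and 6.20 CPM against 0, 41.3 and 134 CPM, above 10 of 11 morulas. APOA1, an apolipoprotein secreted by endoderm, measured 1.55 and 2.83 CPM against 0, 28.3 and 128 CPM, with 12 expanded embryos above both. RSPO3, a secreted activator of WNT signalling, had no count in delayed embryo 1 and 0.27 CPM in delayed embryo 2, against a median of 5.26 CPM, and 6 expanded embryos were also under 1 CPM. The direction of GATA4, COL4A1 and RSPO3 depended on the title code: with the code as a fixed term their log2 differences were 2.88, 0.25 and 3.67. The expanded embryos of code 112515 were at 0 and 1.30 CPM in GATA4, at 17.6 and 0.325 CPM in COL4A1 and at 0 in RSPO3.

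Pluripotency genes showed no common direction. POU5F1 measured 50.8 and 70.7 CPM against 4.42, 43.2 and 101 CPM in expanded embryos, above 9 of 14, and morulas had a median of 87.9 CPM. NANOG measured 14.4 and 14.55 CPM against 4.29, 20.1 and 64.5 CPM, inside the expanded range. ESRRB, an orphan nuclear receptor, measured 4.44 and 15.5 CPM against 4.02, 37.7 and 64.8 CPM, below 12 of 14. SOX17, CDX2, SOX2 and KRT8 had no identifier with a symbol in the table and were not analysed here.

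**Figure D1:**
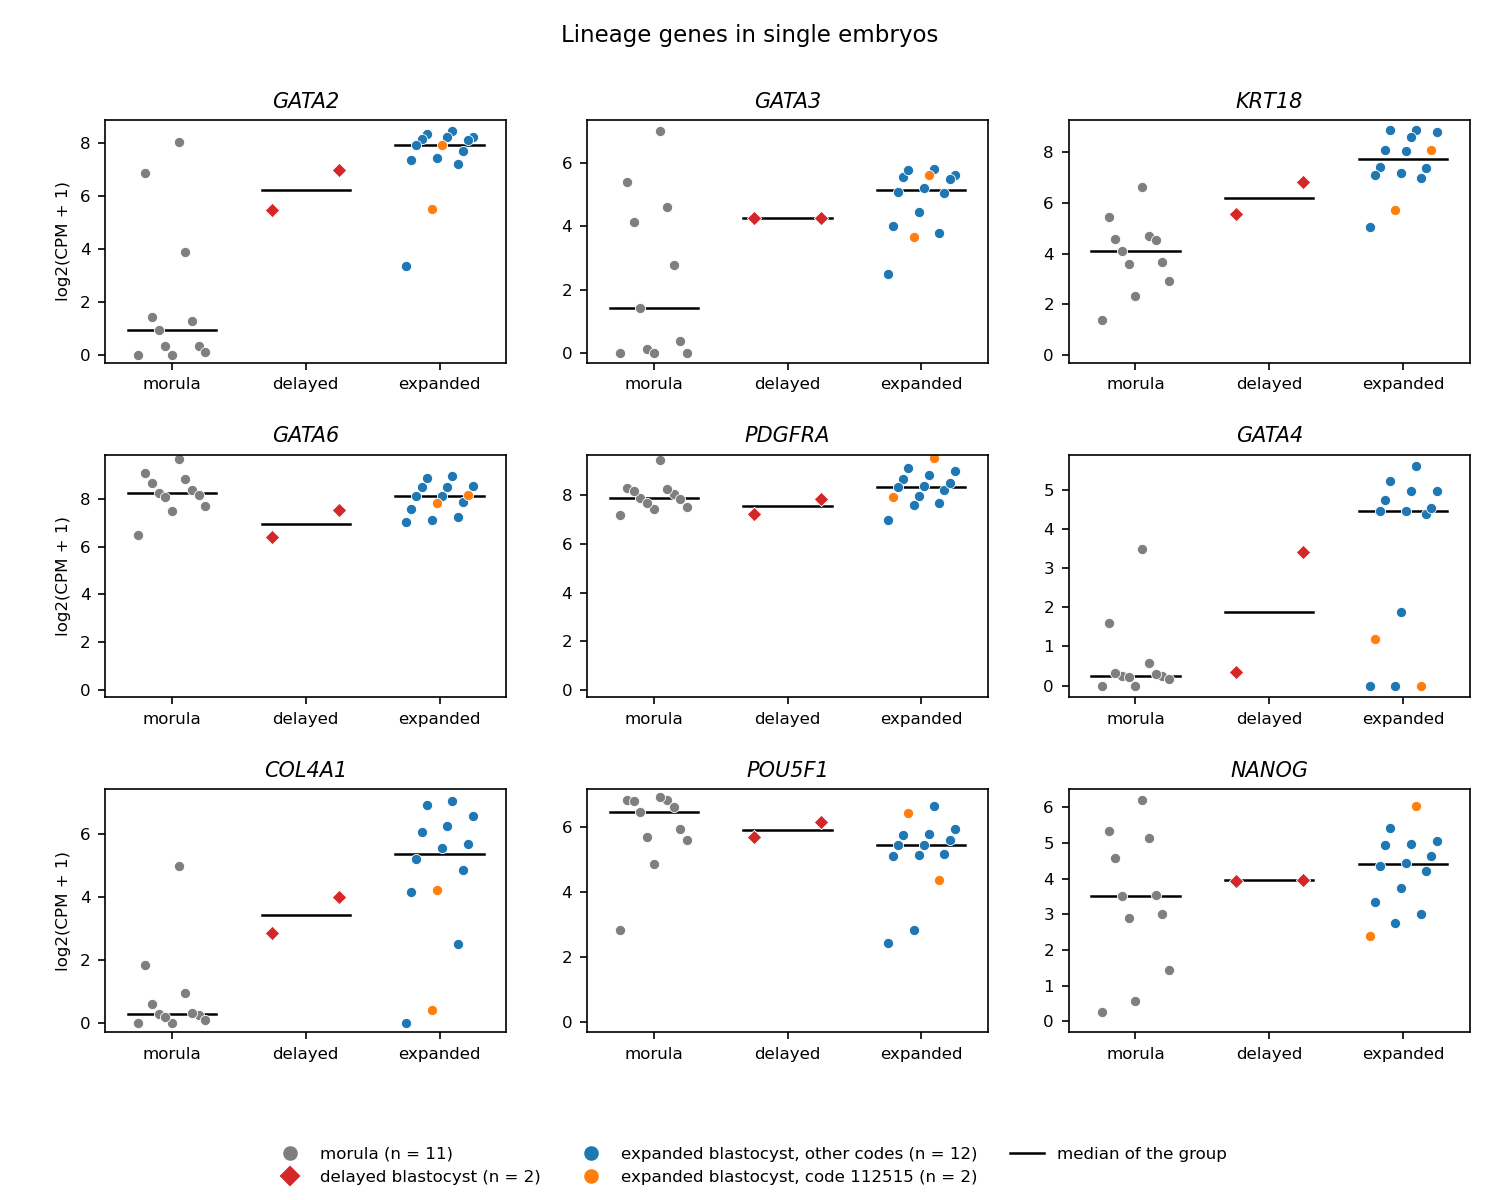
Levels of 9 lineage genes on a log2(CPM + 1) axis, with a point per embryo in 11 morulas (grey), 2 delayed blastocysts (red diamonds) and 14 expanded blastocysts (blue, or orange for title code 112515) and a bar at each group's median. GATA2, KRT18 and COL4A1 lie between most morulas and most expanded embryos in the delayed pair, GATA6 and PDGFRA show little difference between morulas and expanded embryos, and delayed embryo 2 is at 0.27 CPM in GATA4.

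To place the delayed embryos between the stages, an axis was drawn through the 1253 of 11168 genes (11.2%) that differed between expanded blastocysts and morulas in an edgeR fit without the delayed libraries. By their group means of log2(CPM + 1), 346 of these rise and 907 fall towards the expanded stage. The place of a library is its projection on the line from the morula mean (0) to the expanded mean (1) over log2(CPM + 1) values, and each morula or expanded embryo was placed on an axis refitted without it. Delayed embryo 1 lay at 0.863 and delayed embryo 2 at 0.714. Expanded embryos averaged 0.942 ± 0.237 (SD, n = 14), with a median of 1.03 and a range of 0.235 to 1.14, and morulas averaged 0.173 ± 0.266 (SD, n = 11), from -0.197 to 0.754. The delayed pair lay nearer to the expanded than to the morula mean, inside the range of the expanded embryos. Delayed embryo 1 was above all 11 morulas, and delayed embryo 2 above all but 1, morula 022916_01 at 0.754.

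The mean of the delayed pair, 0.789, differed from morulas by more than the spread between libraries (exact permutation p = 0.0256, two-sided, the smallest possible p being 0.0128). It did not differ from the expanded embryos beyond their spread (exact permutation p = 0.342, two-sided, smallest possible p 0.00833). That second result turns on 1 library. The 0.601 M expanded library, which lay at 0.235, was left out of the comparison but not out of the axis. This setting was not planned for the place. The expanded embryos then ranged from 0.787 to 1.14. The difference of the delayed pair from their mean of 0.997 ± 0.126 (SD, n = 13) was -0.208 (exact permutation p = 0.0286, smallest possible p 0.00952). Delayed embryo 2 was then below all 13 expanded embryos, and delayed embryo 1 below all but 2 of them. The 2 expanded embryos of code 112515 lay at 0.990 and 0.787, so that delayed embryo 1 fell between them and delayed embryo 2 below both (exact permutation p = 0.667, where 2 against 2 libraries cannot give a p below 0.333). Without 112515_03 the single expanded value of the code, 0.787, lay beside the delayed mean of 0.789.

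Genes that rise and genes that fall towards the expanded stage placed delayed embryo 1 at 0.934 and 0.775, and delayed embryo 2 at 0.671 and 0.769. Delayed embryo 1 was thus further along for the rising genes, and the embryos were level for the falling genes. For the rising genes expanded embryos ranged from 0.206 to 1.19 and morulas from -0.0977 to 0.805, the highest morula lying above delayed embryo 2. For the falling genes the ranges were 0.272 to 1.19 and -0.572 to 0.677. By gene, 82.1% of the 346 rising genes were nearer the expanded than the morula mean in delayed embryo 1 and 71.7% in delayed embryo 2, and 72.3% and 75.5% of the 907 falling genes. Expanded embryos gave 38.5% to 92.7% over all axis genes and the delayed embryos 75.0% and 74.5%. Across 12664 genes, Spearman's rho of the delayed embryos with the mean of the expanded embryos was 0.906 and 0.924, and with the mean of the morulas 0.841 and 0.872, which describes values that share depth and base composition across genes. These genes were kept by their counts in delayed and expanded libraries only. Because that choice favours the expanded mean, the values cannot show which stage is nearer.

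**Figure D2:**
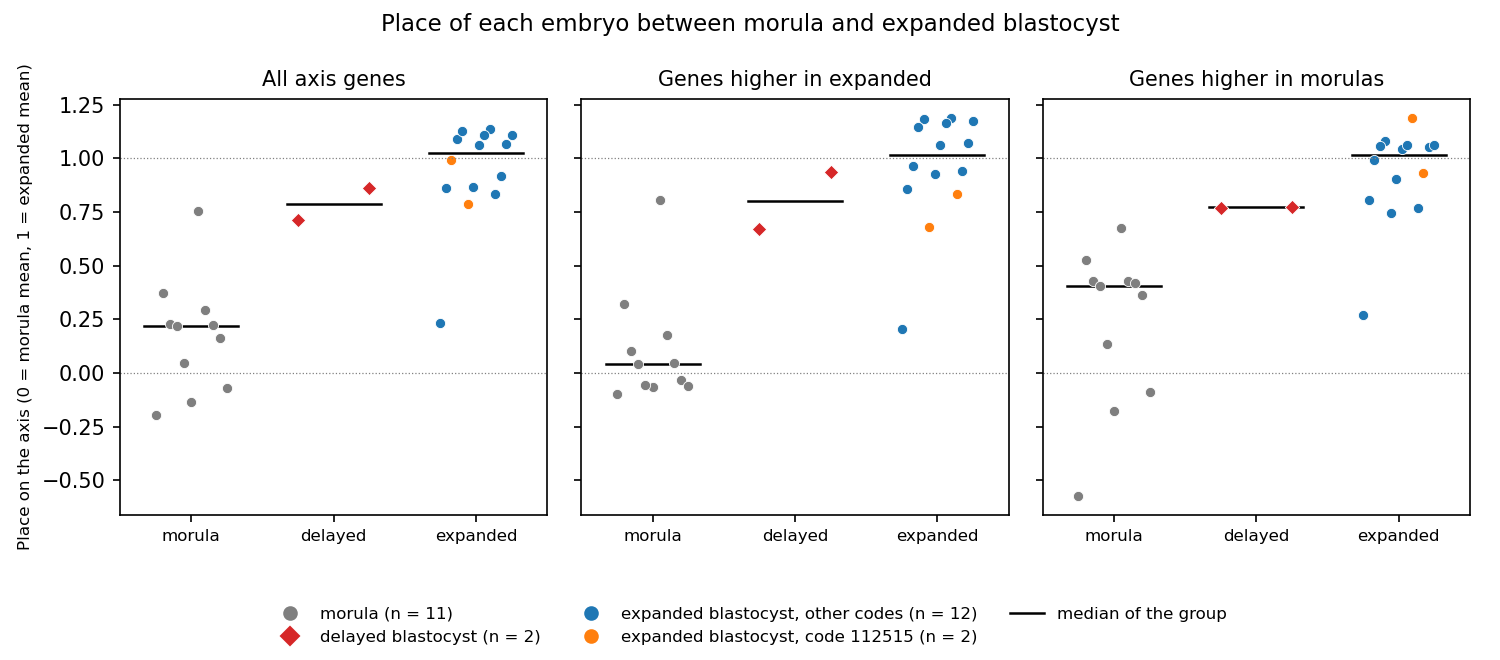
Place of each embryo (vertical axis, 0 at the morula mean and 1 at the expanded mean) over all axis genes, genes higher in expanded blastocysts and genes higher in morulas, with a point per embryo coloured by group and a bar at the group's median. The delayed embryos (red diamonds) sit at 0.863 and 0.714 over all axis genes, above 10 of 11 morulas in 1 embryo's case and all 11 in the other's, and the lowest expanded point at 0.235 is the library with 0.601 M counts.

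The axis genes with the largest change showed both kinds of place. ABCG2, an efflux transporter of trophoblast, measured 5.33 and 8.22 CPM in the delayed embryos, near the expanded median of 6.38 CPM, with a morula maximum of 0.865 CPM. SLC1A3, a glutamate transporter, measured 34.0 and 7.55 CPM against an expanded median of 10.95 CPM and a morula maximum of 2.16 CPM. TSPAN15, a tetraspanin that binds the protease ADAM10, measured 22.2 and 7.28 CPM between a morula median of 0 and an expanded median of 48.2 CPM. SEMA6D, a transmembrane semaphorin, measured 104 CPM in delayed embryo 1 and 0.404 CPM in delayed embryo 2, against a morula median of 0.389 CPM. Among falling genes, CA13, a carbonic anhydrase, measured 8.88 and 0.539 CPM between a morula median of 15.2 CPM and an expanded median of 0.37 CPM, and LUZP2 measured 3.33 and 4.04 CPM between 7.60 and 0.685 CPM. F2RL2, MFSD2A, NETO1, DZIP1 and TMEFF1 had places from 0.174 to 1.04 in the delayed embryos. PTCD1, a mitochondrial RNA-binding protein, entered the axis through a value of 58000 CPM in the 0.601 M expanded library, the next highest expanded value being 90.7 CPM, and its places of -1.62 and -3.49 rest on that library.

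Over all genes, no difference between delayed and expanded blastocysts passed adjustment: 0 of 15578 genes (0%) had an edgeR adjusted p under 0.05. At an unadjusted p under 0.05 there were 196 genes (1.26%), 170 higher (1.09%) and 26 lower (0.167%) in the delayed embryos. That 1.26% is less than the share of 0.05 that a test gives where nothing differs. DESeq2 called 22 genes, all at 0 counts in both delayed embryos with expanded medians of at most 2.04 CPM, and voom called 1, an abundant identifier without a symbol at 84190 and 42610 CPM against 18730 to 52700 CPM. The 95% interval of a log2 difference reached a median of 3.36 to either side, and 2.00 over the 6157 genes with an expanded mean of at least 10 CPM. These are intervals for single genes, before adjustment over all genes.

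Both delayed embryos lay above all 14 expanded embryos in 110 of 15578 genes (0.706%) and below all 14 in 28 genes (0.18%). Where nothing differs, a given pair of these libraries is the highest in 1 of 120 splits, a share of 0.00833. Neither count exceeds that share, so that the genes below are described and not shown to differ. The named genes with the smallest p gave 5 that lay above all 14. MAP3K20, a stress-activated kinase (ZAK), measured 7.10 and 3.37 CPM against an expanded median of 0 and a maximum of 1.41 CPM (log2 difference 5.14 ± 1.66, edgeR unadjusted p = 0.00323, adjusted p = 1.0). RRH, a non-visual opsin, measured 7.55 and 2.56 CPM against a maximum of 2.29 CPM, and CRISPLD1, a secreted cysteine-rich protein, 4.66 and 5.66 CPM against 2.62 CPM. RRH and CRISPLD1 were also above at least 10 of 11 morulas. RFX7, a winged-helix transcription factor of the RFX family, measured 29.5 and 15.9 CPM against 0.451, 1.91 and 12.9 CPM (2.78 ± 1.13, edgeR unadjusted p = 0.0178), with a morula median of 5.56 CPM. SAMD15 measured 8.44 and 5.26 CPM against a maximum of 3.20 CPM. CCND1, the D-type cyclin of the G1 phase, measured 2.00 and 10.4 CPM against an expanded median of 0.198 and a maximum of 2.48 CPM, and SYK, a non-receptor tyrosine kinase, 4.44 and 10.5 CPM against 0.442 and 5.66 CPM. CDC20B, KCND1, DTNA, ZNF432 and MOCS1 overlapped the expanded range in 1 of the delayed embryos, with log2 differences of 2.70 to 4.16.

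Fewer genes lay below the expanded embryos, but a gene at 0 in any expanded embryo cannot lie below all 14. The edgeR test also sees the 2 directions unequally. In simulated counts with 200 genes changed 16-fold in the delayed embryos, it called 57% of the raised and 3% of the lowered genes. The numbers of higher and lower genes therefore cannot be compared. MAP1B, a microtubule-associated protein, measured 25.5 and 10.6 CPM against 29.7, 83.2 and 207 CPM (log2 difference -2.41 ± 0.98, edgeR unadjusted p = 0.0179, adjusted p = 1.0). SPRY4, an inhibitor and target of FGF signalling, measured 25.5 and 16.2 CPM against 26.5, 96.0 and 172 CPM (-2.20 ± 0.92, edgeR unadjusted p = 0.0215), with the expanded embryos of code 112515 at 110.4 and 29.1 CPM. ZSWIM1 measured 17.3 and 14.4 CPM against 21.8, 52.9 and 181 CPM. MAP2K2, the kinase MEK2 that acts below FGF receptors, measured 0.666 and 2.29 CPM against a median of 10.8 CPM, with 13 of 14 expanded embryos above both, and NARF 3.55 and 9.70 CPM against 29.7 CPM, also with 13 above. SEPTIN11, a cytoskeletal GTPase, measured 129.2 and 105.2 CPM against a lowest and median expanded value of 127 and 255.5 CPM. RPL28, HSD17B8, CRACD and STRIP2 overlapped the expanded range, and for PTCD1 and MBD4 the fitted differences of -6.44 and -7.02 rest on the 0.601 M library, which held 58000 and 100600 CPM. Without that library MBD4 gave 0.51 and PTCD1 -0.016.

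**Figure D3:**
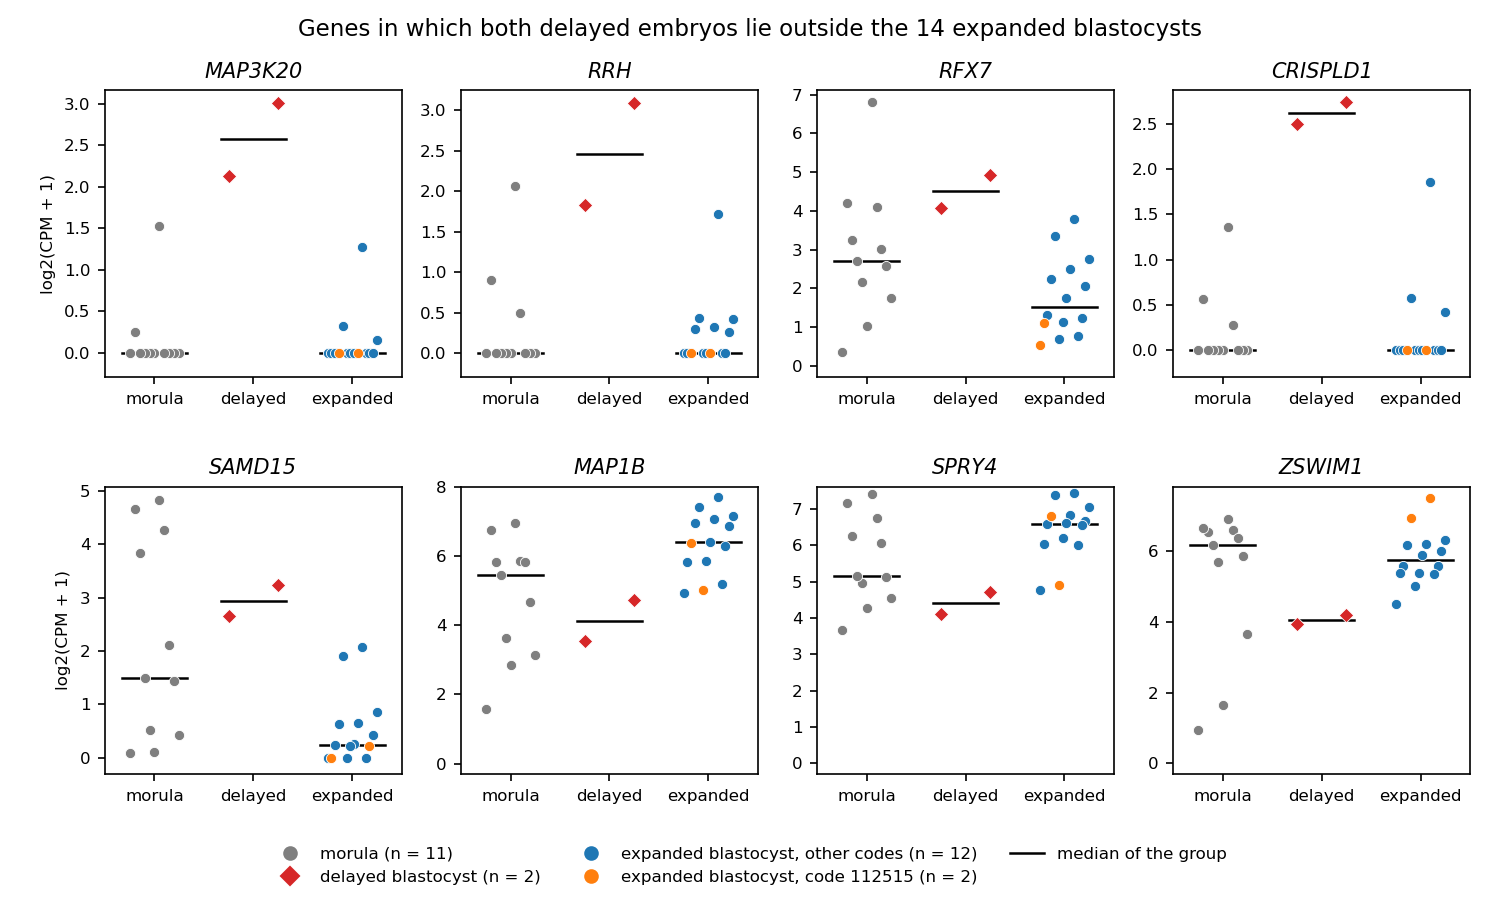
Levels of the 8 genes named from the smallest p-values in which both delayed embryos lie outside the range of the expanded blastocysts, on a log2(CPM + 1) axis with a point per embryo and a bar at each group's median. The expanded embryos of code 112515 (orange) are at 0 in MAP3K20, RRH and CRISPLD1, and in ZSWIM1 they are the 2 highest expanded embryos.

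Gene lists were summarised by counting the members in which both delayed embryos lay below, or both above, the median of the 14 expanded embryos, over members whose expanded median was at least 1 CPM. Over all 9715 such genes both lay below in 29.9% and both above in 28.5%, and no list had a member called by edgeR against expanded embryos. For the primitive endoderm list the counts were 14 of 22 below and 1 above, for the basement membrane list 12 of 21 below and 2 above, for cell junction and polarity genes 18 of 29 below and 2 above, and for trophectoderm transcription factors 10 of 21 below and 2 above. The median log2 differences were -0.92, -0.73, -0.50 and -0.74 for these lists, beside -0.24 over all 15578 genes. Epithelial and placental products of trophectoderm had 8 of 18 members below and 2 above, and pluripotency genes 6 of 13 below and 4 above. The 2 expanded embryos of code 112515 also lay below the expanded median together in 11 of 22 primitive endoderm genes, 9 of 21 basement membrane genes, 12 of 29 junction genes and 9 of 21 trophectoderm factors. Over all 9715 genes they did so in 2853. Their mean log2(CPM + 1) over these genes was 3.71 and 3.91, beside an expanded median of 4.06. Against those 2 embryos alone the median log2 differences of the same lists were -0.16, -0.13, -0.28 and 0.38, beside 0.06 over all genes.

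Within the basement membrane list the levels of matrix genes varied widely among expanded embryos. FN1 (fibronectin) measured 4.22 and 0.539 CPM in the delayed embryos against 0.488, 11.4 and 202 CPM. SERPINH1, the collagen chaperone HSP47, measured 5.33 and 1.08 CPM against 0, 41.5 and 183 CPM, with 12 of 14 expanded embryos above both. PLOD2, a collagen lysyl hydroxylase, lay the other way at 3.77 and 4.85 CPM, above all 14 expanded embryos (highest 2.29 CPM). P4HB, a protein disulfide isomerase, measured 43.7 and 149 CPM against 85.0, 180.2 and 362 CPM. Among junction genes JUP (plakoglobin) measured 16.0 and 76.7 CPM against 41.6, 154 and 292 CPM, with 10 of 14 expanded embryos above both. Of the Hippo pathway, whose co-activator YAP1 acts with TEAD factors in the trophectoderm, 5 of 16 members lay below and 4 above. YAP1 measured 21.3 and 48.6 CPM against 23.9, 72.5 and 139.5 CPM, and its target CCN2 37.7 and 0.135 CPM against 0, 1.69 and 16.4 CPM.

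Other lists lay on either side. Among p53 target and cell death genes both delayed embryos lay above the expanded median in 12 of 21 and below in 3, with a median log2 difference of 0.33, and no member passed an unadjusted p of 0.05. The mean log2(CPM + 1) over that list was 4.01 and 4.28 in the delayed embryos, 3.16 to 4.22 in expanded embryos and 2.86 to 3.75 in morulas. RRM2B, a p53-induced subunit of ribonucleotide reductase, measured 15.3 and 10.6 CPM against 0.451, 2.70 and 21.6 CPM. In the unfolded protein and integrated stress response list, 14 of 28 members lay below and 5 above, and ATF3, a stress-induced transcription factor, measured 2.66 and 5.79 CPM, above all 14 expanded embryos (highest 2.18 CPM) and near the morula median of 3.38 CPM. Nuclear-encoded respiratory chain genes lay above in 18 of 44 and below in 8, oocyte and maternal-effect genes above in 10 of 21 and below in 5, and cytosolic ribosomal protein genes 17 of 57 each way. DAZL, a germ cell RNA-binding protein, measured 38.0 and 9.16 CPM, above 12 of 14 expanded embryos, and RPS27A 381 and 184 CPM, also above 12 of 14. Mitotic genes lay above in 13 of 38 and below in 15, DNA replication genes above in 5 of 41 and below in 18, and DNA methylation genes above in 2 of 17 and below in 8. Hypoxia genes lay below in 9 of 18 and above in 2, and lysosome and autophagy genes below in 15 of 31 and above in 4.

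**Figure D4:**
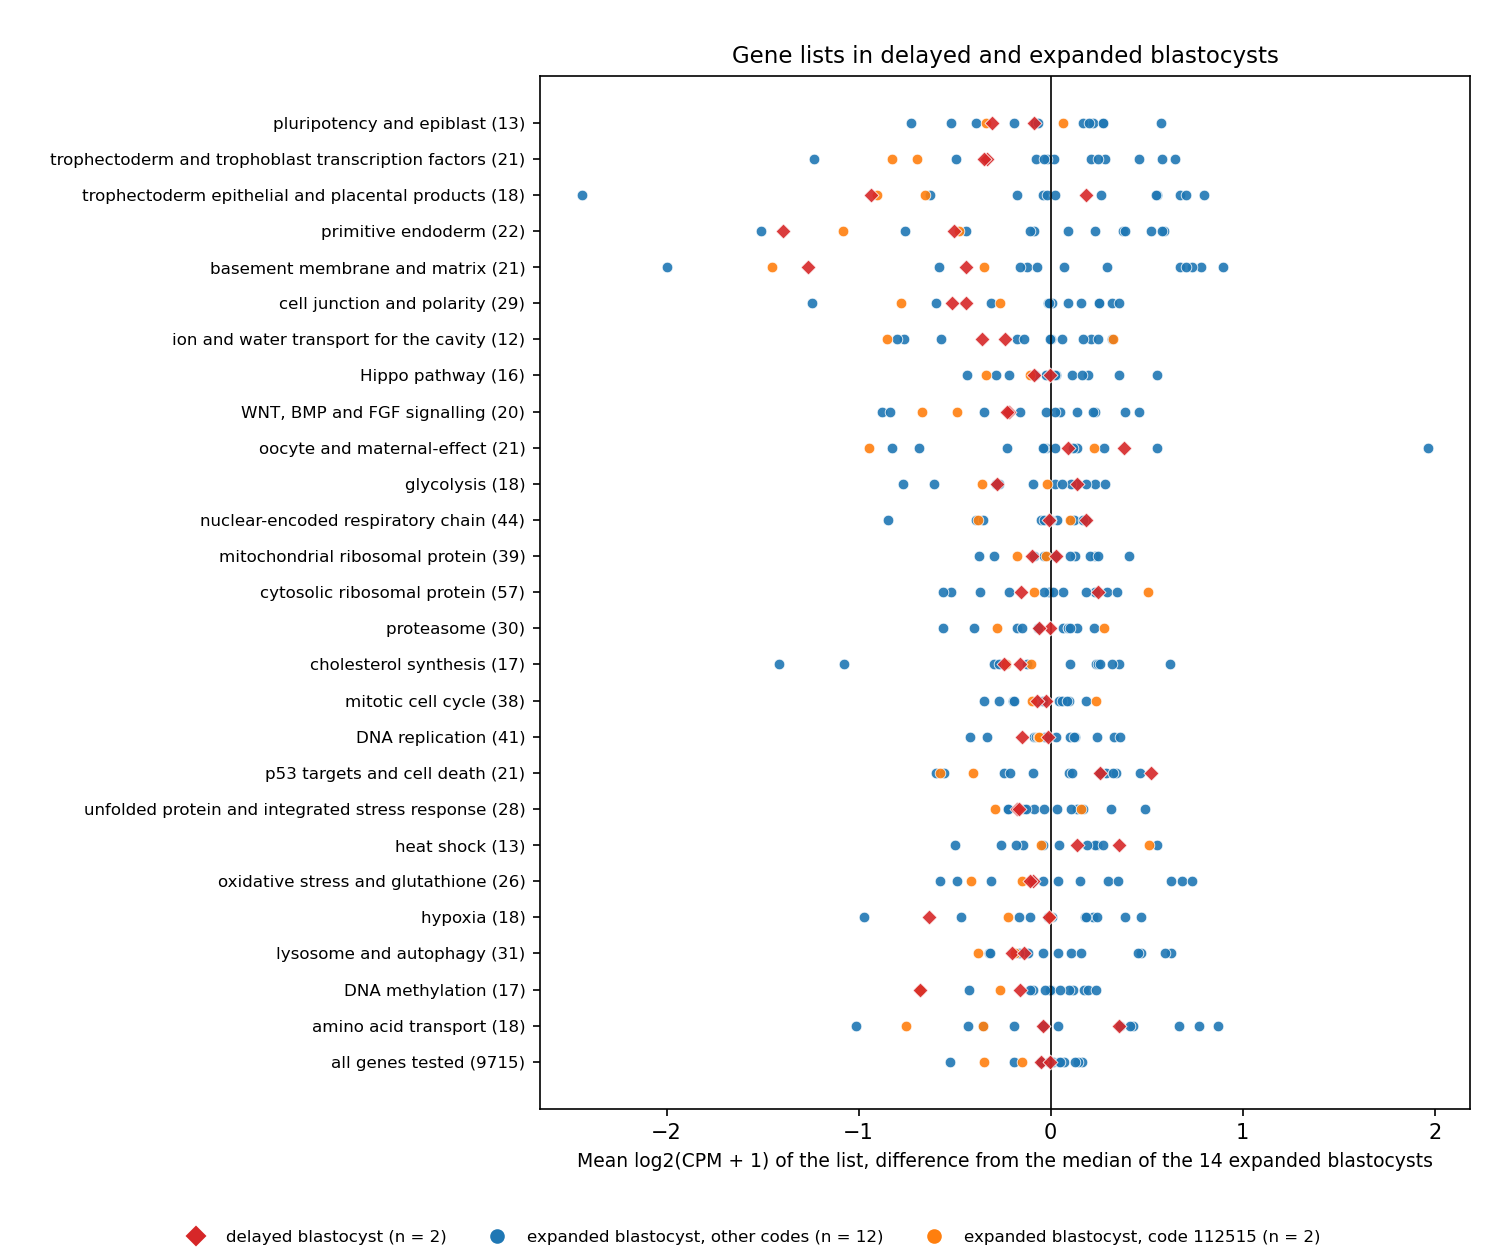
Mean log2(CPM + 1) of each list in every delayed and expanded embryo, drawn as the difference from the median of the 14 expanded embryos (horizontal axis, log2 units), with the number of members in parentheses. In the primitive endoderm and basement membrane lists the delayed embryos (red) and the expanded embryos of code 112515 (orange) lie left of the median, and in the p53 list both delayed embryos lie right of it while both code 112515 embryos lie left.

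The comparison with the 2 expanded embryos of code 112515 also gave no call: 0 of 15578 genes (0%) passed an edgeR adjusted p of 0.05, and 386 (2.48%) had an unadjusted p under 0.05, 304 higher (1.95%) and 82 lower (0.526%) in the delayed embryos. The 2.48% is likewise less than the share of 0.05 given where nothing differs. DESeq2 called 41 genes, 32 higher and 9 lower, and voom called 0. PER2, a circadian clock repressor, measured 8.21 and 12.5 CPM and had no count in either expanded embryo of the code. The mean of the delayed embryos, 10.4 CPM, was at least 36.6-fold above a floor of 3 counts over the 2 libraries. ZNF112, RRP9, which binds the U3 small nucleolar RNA, and MFSD11 had the same pattern, with bounds for the delayed mean of 47.1-fold, 28.15-fold and 32.05-fold. The median of PER2 over all 14 expanded embryos was 9.29 CPM, and only the 2 of this code were under 1 CPM, so that the 2 expanded embryos of the code, and not the delayed ones, lay apart from the rest. In the other direction CDC6, which loads the replicative helicase, measured 49.3 and 94.1 CPM against 350 and 259 CPM (-2.09 ± 0.67, edgeR unadjusted p = 0.00296), beside a median of 102 CPM over all expanded embryos. R3HDM1 showed the same, with 59.7 and 73.2 CPM against 336 and 225 CPM. GRB10, SHOC2 and MLXIP measured 446, 398 and 381 CPM in 112515_03, the library with the fewest genes detected, and 63.7, 76.4 and 8.61 CPM in 112515_04. Their log2 differences moved from -2.34, -2.80 and -5.23 to -0.34, -1.16 and -0.73 without 112515_03. Leaving out that library, 99 genes (0.641%) had an unadjusted p under 0.05, and leaving out 112515_04, 636 (4.11%).

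Against morulas, 3 of 15578 genes (0.0193%) passed an edgeR adjusted p of 0.05, beside 2283 (14.7%) between expanded blastocysts and morulas in the same fit, where 14 libraries stand against 11. At an unadjusted p under 0.05 the latter comparison had 1505 genes higher (9.66%) and 2981 lower (19.1%), together 28.8%. The balance of its directions turned with the method, from 733 higher and 1550 lower called genes in edgeR to 1739 and 496 with voom and the title code as a block, and 1449 and 383 with voom alone. MAX, the dimerisation partner of MYC, fell by 2.85 ± 0.57 on the log2 scale (edgeR adjusted p = 0.048, between 6.54e-05 and 0.599 over 10 alternatives, of which 3 called it). It measured 332.5 and 351 CPM in the delayed embryos, 228 to 676 CPM in expanded embryos and 828.5 to 5011 CPM in morulas, so that both blastocyst groups lay below all 11 morulas. IL12B, a subunit of interleukin 12 and 23, rose to 14.7 and 2.02 CPM from no count in any morula (edgeR adjusted p = 0.0179, 0.00803 to 0.5 over 9 alternatives, of which 6 called it). The mean of the 2 delayed embryos, 8.34 CPM, was at least 321-fold above a floor of 3 counts over the 11 libraries. Delayed embryo 1 gave most of that mean. The expanded values of IL12B ran from 0 to 9.26 CPM. The third gene, ENSMMUG00000022763, has no symbol and rose to 117 and 7.55 CPM from a morula maximum of 1.51 CPM (edgeR adjusted p = 0.000111, 3.26e-05 to 0.2202 over 10 alternatives, 8 of which called it). With DESeq2 size factors the count was 6, of which 5 were higher, and the median log2 difference of all genes from morulas moved from -0.55 to -0.41.

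At an unadjusted p under 0.05 there were 870 genes (5.58%), 531 higher (3.41%) and 339 lower (2.18%) than in morulas, and both delayed embryos lay above all 11 morulas in 360 genes (2.31%) and below all 11 in 90 (0.578%). Epithelial and placental products of trophectoderm contributed 8 of 26 tested members at that p, all higher, primitive endoderm genes 5 higher and 1 lower of 27, and oocyte and maternal-effect genes 5 lower of 36. Called by edgeR between expanded blastocysts and morulas, KRT18 differed from morulas by 1.75 ± 1.00 in the delayed embryos and by 3.35 in the expanded ones, and COL4A1 by 1.73 ± 1.54 and 3.96. The 2 comparisons share the morulas.

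The 2 delayed embryos resembled each other as closely as many pairs of expanded embryos did. Spearman's rho between them was 0.869 across 12664 genes, beside 0.710 to 0.932 (median 0.840) in 20 pairs of expanded embryos with a shared code. Of 6137 genes with a mean of at least 10 CPM, 280 (4.56%) differed more than 4-fold between them on the log2(CPM + 1) scale, beside 0.652% to 29.0% (median 6.54%) in those 20 pairs. Among axis genes of the lists, basement membrane genes had a median place of 0.823 in delayed embryo 1 and 0.52 in delayed embryo 2, and primitive endoderm genes 1.05 and 0.701. Cytosolic ribosomal protein genes, all falling, went the other way with 0.3 and 1.06 over 11 genes.

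The genes named here for setting the delayed embryos apart were chosen after their values were seen, and the 3 with the largest difference were Y-linked. Y-linked genes have X-linked copies of similar sequence, so that the authors' counting may have split reads between them. DDX3Y, an RNA helicase encoded on the Y chromosome, measured 243 CPM in delayed embryo 1 and 0.404 CPM in delayed embryo 2, and RPS4Y1, a ribosomal protein of the Y chromosome, 262 and 0.404 CPM. Over the expanded embryos DDX3Y was at least 10 CPM in 9 and under 1 CPM in 4, and the labels give no sex, so that embryos were not grouped by it. Some X-linked genes lay the other way, with DLG3 at 13.98 and 122 CPM, MED12 at 15.1 and 88.5 CPM and ACSL4 at 54.8 and 279 CPM, against expanded medians of 79.96, 60.6 and 159.8 CPM. Of genes outside the sex chromosomes, NID2, a nidogen of the basement membrane, measured 293 and 4.04 CPM against 20.6, 476 and 910.1 CPM in expanded embryos, so that delayed embryo 2 lay below all of them and near the morula median of 5.75 CPM. PROM1 (prominin 1) measured 51.5 and 2.96 CPM against 16.0 to 255 CPM, and SLC39A8, a zinc and manganese transporter, 76.4 and 2.43 CPM against 0 to 177 CPM. TET2, which oxidises methylated cytosine, measured 976 and 290.4 CPM against 240.0, 1257 and 2163 CPM, and SLC2A1, the glucose transporter GLUT1, 521 and 115 CPM against 75.4, 772 and 1381 CPM. In both, delayed embryo 2 lay below all expanded embryos except the 0.601 M library. HK2, the hexokinase that starts glycolysis, measured 605 and 394 CPM against 450.3, 903 and 1389 CPM, with 13 expanded embryos above both.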

How the data were processed

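The authors deposited whole-number counts of reads per gene identifier, not normalised. HISAT2 and DESeq2 are named by the submitters' processing notes, without versions. As to counter, genome build, annotation and strand, these were not given in the sources used here. Overlapping genes and near-identical copies may therefore share counts. Of 52 columns, 49 matched a sample, and the 3 others were not used. Symbols covered 15078 of 26309 identifiers.

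The 36 SPIA libraries (9 8-cell, 11 morula, 14 expanded and 2 delayed) were fitted together in R 4.3.3 with edgeR 4.0.16 (robust quasi-likelihood, TMM, filterByExpr, Benjamini-Hochberg), so that the 2 delayed libraries share an estimate of the spread. Calls have an adjusted p under 0.05. Alternatives were DESeq2 1.42.0, limma 3.58.1 (voom without a block, and with one for the title code, estimated correlation -0.0345), DESeq2 size factors, other filters, single libraries or title codes left out, and for places other pseudocounts (0.25 and 5), axis genes and summaries. Permutation tests over libraries were exact and two-sided. The steps were tested on simulated data. Counts carry no molecular identifiers, so depth and floors cover counting error only.

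Named genes were the marker genes, the 12 per direction with the smallest p and a mean of at least 5 CPM in the higher group with 1 CPM in 80% of its libraries, 5 per direction for code 112515, 6 axis genes per direction, up to 4 members per list, and genes said to be chosen after their values were seen; 1 gene that the rule names is not reported here. The comparisons, members and 32 lists were chosen with earlier results of these data known. Python 3.11.15, pandas 2.3.3, numpy 2.4.6 and matplotlib 3.10.9 were used for the rest.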

Additional observations from a re-analysis of the deposited data

How the results depend on the processing

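The count of 0 genes between delayed and expanded blastocysts held in edgeR with DESeq2 size factors, both filters, groups fitted alone, each title code or low library left out, title code as a fixed term and without the 8-cell libraries (the last chosen after seeing the data), and was 22 with DESeq2 and 1 with voom, with and without the title code as a random block. Leaving out either delayed embryo gave 0 calls against expanded embryos of all codes or of code 112515, and 0 to 2 against morulas. For code 112515 the count was 0 in every fit except DESeq2 (41). Against morulas the 3 calls became 6 with DESeq2 size factors, 29 with DESeq2 (4 higher and 25 lower), 1 with the stricter filter, 0 with the groups fitted alone, 43 and 40 with voom with and without the block (all higher), and 20 (19 higher) without the 8-cell libraries; the cause was not tested. At an unadjusted p under 0.05 the 196 genes against expanded embryos became 592 without a filter, 60 with the stricter one, 295 with the groups fitted alone and 440 with the title code as a fixed term. The 386 for code 112515 became 769 with DESeq2, 226 and 260 without either delayed embryo, and 99 and 636 without either expanded one, and the 870 against morulas became 1441, 536 and 339 with no filter, the stricter filter and the groups alone, and 440 and 455 without either delayed embryo. The place of the delayed pair relative to expanded embryos stayed within -0.208 to -0.0998 over 9 other settings, with exact permutation p from 0.317 to 0.667. It gave p = 0.0286 in the same test only with libraries under 2 M counts left out of the comparison (-0.208). That setting was not planned for the place, and the axis still held the library. Leaving out delayed embryo 1 or 2 gave -0.228 and -0.0789 (exact permutation p = 0.133 and 0.733). Relative to morulas it stayed within 0.614 to 0.805 over 8 settings (exact permutation p 0.0128 to 0.0256), and without 1 delayed embryo lay at 0.541 and 0.690, where 1 against 11 libraries cannot pass. The p of 0.0128 came from axis genes called by voom or in SoLo libraries, another preparation in the series. In those settings the genes were not called again without each library.

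Of 1070 fold changes of named genes under alternatives, 1038 kept direction and side of the threshold, 12 lost and 2 gained a call, and 18 turned sign. MBD4 gave 0.50 with DESeq2, 0.28 and 0.49 with voom, 0.60 without code 111715, 0.51 without libraries under 2 M counts and 1.70 with the title code as a fixed term. That term also turned COL4A1 (0.25), FN1 (1.99), GATA4 (2.88) and RSPO3 (3.67). Leaving out delayed embryo 1 or 2 gave -4.66 and 3.34 for CCN2, -0.29 and 3.61 for ZNF432, 1.80 and -1.57 for LCP1, and -2.17 and 2.95 for GATA4 against morulas. GATA3 against morulas, -0.12, gave 0.075 and 0.076 with DESeq2 size factors and DESeq2, and 3.52 and 3.46 with voom. No paired analysis was possible because delayed and expanded embryos share no replicate number. The 2 delayed libraries limit what can be detected, and depth under 1 M counts limits 1 expanded library.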

Other observations

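Values of further genes of the lists, outside the comparisons above, were as follows. LAMB1, a laminin chain, measured 544 and 282 CPM in the delayed embryos against 61.7, 505 and 764 CPM in expanded embryos and at most 305.0 CPM in morulas. KRT19, a keratin, measured 19.3 and 8.49 CPM, above all 11 morulas (highest 7.35 CPM) and inside the expanded range of 0 to 122 CPM. HNF4A, a nuclear receptor of endoderm, measured 63.0 and 71.1 CPM, below 13 of 14 expanded embryos. These genes were chosen after their values were seen.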
